A study of Saccharomyces cerevisiae with 25 samples.

Results

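The 10 genes described here are the yeast iron uptake genes FTR1, FET3, FIT1, FIT2, FIT3, ARN1, ARN2, FTH1, FET5 and AFT1. They were taken by name from the 6650 named entries of a Saccharomyces cerevisiae RNA-sequencing table. Of the 10, 9 were listed in at least 1 library and 7 had enough values to be tested. The cells were BY4741, a haploid laboratory yeast, with the genotype pho84pr-YFP, pho90_OX, in which a promoter of the phosphate transporter gene PHO84 drives a fluorescent reporter. They were sampled every 15 min without phosphate, in 24 libraries from 15 to 360 min after a wash and a transfer, and once at 0 min in high-phosphate medium. Every library carries this genotype, and no library of an unmodified parent was used here. The labels do not say what drives pho90_OX, whether the strain is a single clone or what else differs between the media. The wash, the change of medium and the loss of phosphate therefore cannot be told apart.

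Each time point is a single library. The 24 no-phosphate libraries were therefore grouped by labelled time into a late (255 to 360 min), a middle (135 to 240 min) and an early (15 to 120 min) window of 8 libraries each. A finer division used 6 hour windows of 4 libraries. Neighbouring time points of a single course stand in for replicates, so the p-values below reflect the scatter of a single time course. Values are log2 RPM, the log2 of reads scaled to a common total over listed genes, and differences are log2 differences unless a fold is given. Reads in listed genes ranged between 450744 (15 min) and 2271193 (90 min), with medians of 612972.5 in the late, 1010602.5 in the middle and 1382080.5 in the early window. Every library lists only genes with at least 15 reads, a floor worth 33.3 RPM at 15 min and 6.60 RPM at 90 min. Ribosomal protein genes took 6.80% to 12.6% of reads in the late window and 31.3% to 36.8% in the early window, and the median tested gene was 0.45 higher in the late than in the early window. PHO90, a low-affinity phosphate transporter gene, stood at 11.07 to 12.4 without phosphate and at 10.68 at 0 min. The a-cell genes MFA1, MFA2, STE2, BAR1, AGA2 and STE6 had values in all 25 libraries, while HIS3, LEU2 and MET17, which BY4741 lacks, had none and URA3, also deleted, had values in 2. The alpha-cell gene STE3 was listed in 22 libraries, at 4.01 to 5.61, against 8.19 to 9.30 for STE2.

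Yeast takes up scarce iron by a reductive and a non-reductive route. At the cell surface, metalloreductases reduce ferric iron, the multicopper ferroxidase Fet3 oxidises it again and the permease Ftr1, bound to Fet3, carries it in. In the other route, cell wall mannoproteins of the Fit family hold iron-bearing siderophores near the membrane, and transporters of the Arn family import them. Fth1 and Fet5 form a matching permease and oxidase pair in the vacuole membrane that releases stored iron. The transcription factor Aft1 switches these genes on when iron is low and leaves the nucleus when iron is ample.

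The DNA site known for Aft1 has the core GCACCC, often preceded by T. The promoter stretches that hold it are shown for FTR1 and FET3, the members furthest below their 0 min level. Those of FIT3, FTH1 and FET5 are shown as examples. FIT1, FIT2, ARN1 and ARN2 hold the site too, and their stretches are not printed. Each printed stretch runs 5′ to 3′ on the strand of the gene in the R64 reference from RefSeq. Capitals mark GCACCC, or GGGTGC where the match lies on the opposite strand.
FTR1, chrV:461884-462130, minus strand: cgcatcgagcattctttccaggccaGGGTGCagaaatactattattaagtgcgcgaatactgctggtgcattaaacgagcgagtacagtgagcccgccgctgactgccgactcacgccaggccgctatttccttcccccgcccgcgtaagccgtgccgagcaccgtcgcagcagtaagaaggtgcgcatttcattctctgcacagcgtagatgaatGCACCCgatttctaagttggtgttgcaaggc
FET3, chrXIII:388417-388602, plus strand: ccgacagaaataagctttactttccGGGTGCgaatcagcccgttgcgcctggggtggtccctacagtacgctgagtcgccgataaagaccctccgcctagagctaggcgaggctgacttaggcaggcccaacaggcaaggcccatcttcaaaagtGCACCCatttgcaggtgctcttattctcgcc
FIT3, chrXV:1061209-1061364, minus strand: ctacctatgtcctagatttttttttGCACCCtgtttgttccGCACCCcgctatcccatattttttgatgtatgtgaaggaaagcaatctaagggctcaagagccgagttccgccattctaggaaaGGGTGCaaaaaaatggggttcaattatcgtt
FTH1, chrII:634943-634998, plus strand: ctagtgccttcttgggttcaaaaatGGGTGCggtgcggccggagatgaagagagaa
FET5, chrVI:48987-49042, plus strand: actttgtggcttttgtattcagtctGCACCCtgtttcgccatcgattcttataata

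Within the 500 bases before the start codon, searched on both strands, GCACCC stood in 9 of the 10 iron uptake promoters and in 7.6% of 6000 promoters of the same length. It stood at least 2 times in 5 of the 10, and in 0.7% of all promoters. The longer TGCACCC, each match of which contains a GCACCC match, stood in 8 of the 10 and in 2.3% of all promoters. FTR1 had matches beginning 365 and 174 bases before its start codon, FET3 380 and 250 bases before, and FIT2 held 5 matches. AFT1 itself was the member without a match. CACGTG, the core known for the phosphate regulator Pho4, stood in 0 of the 10 and in 6.2% of all promoters. A match describes letters in a window and does not show binding.

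**Figure D1:**
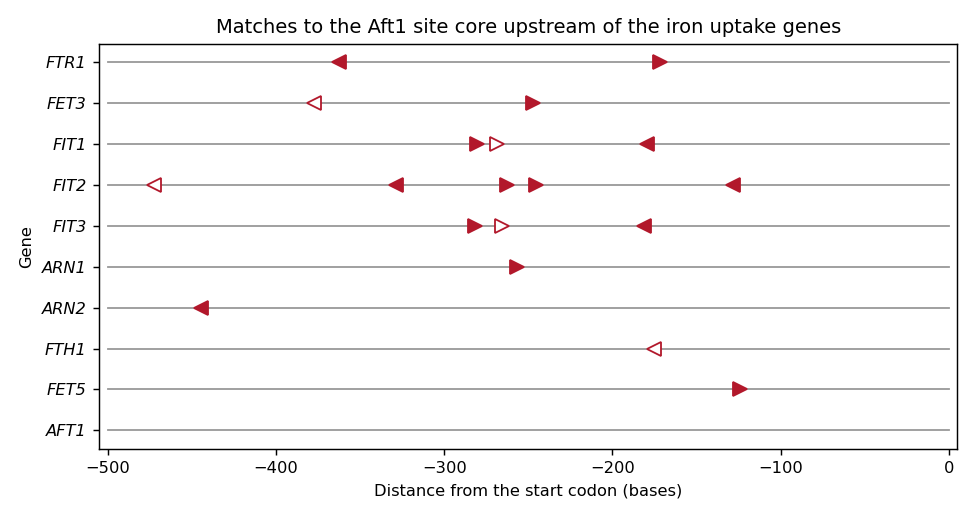
Positions of GCACCC matches in the 500 bases before the start codon of each of the 10 genes, with distance from the start codon in bases on the horizontal axis. Filled triangles mark matches that are also TGCACCC, open triangles GCACCC alone, and right-pointing triangles the strand of the gene; FIT2 has 5 matches and AFT1 has 0.

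FTR1 and FET3, which encode the permease and the ferroxidase of high-affinity uptake, were the members furthest below their high-phosphate level in the first hour. FTR1 (YER145C, chromosome V, 460526 to 461740, minus strand) stood at 6.76 log2 RPM at 15 min, from 49 reads, against 8.96 at 0 min, from 487 reads. This was a difference of -2.20, or 4.6-fold lower (95% counting interval 3.42 to 6.3). FET3 (YMR058W, chromosome XIII, 388822 to 390732, plus strand) stood at 6.67 at 15 min, from 46 reads, against 8.85 at 0 min, from 450 reads, a difference of -2.18, or 4.52-fold lower (3.33 to 6.27). The 0 min condition has no replicate, so no test was possible, and the intervals cover counting error only.

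Of the 3410 genes with a value at both times, 3.58% were at least 1 lower (log2) at 15 min than at 0 min, and the median gene was 0.21 higher. FTR1 had the lowest difference of all 3410 and FET3 the lowest but 2, with BRN1, a condensin subunit gene, between them at -2.19. Genes that fell under the read floor at 15 min (33.3 RPM) have no value there. Larger falls may therefore be missing from this ranking and share. The 15 min library was the shallowest. At 30 min FTR1 was 3.97-fold lower than in the same 0 min library (3.31 to 4.78) and FET3 3.69-fold lower (3.07 to 4.46). Taking the median of the 4 libraries of the first hour, 2 of 7 measured members were at least 1 lower than at 0 min, beside 0.707% of 4245 genes. FTR1 was lowest of all 4245 at -1.89, DBP2, an RNA helicase gene, followed at -1.88, and FET3 came next at -1.75. Genes under the floor in several of those libraries are missing here too.

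The other 5 measured members lay closer to their 0 min level. Their first-hour median differed from the 0 min value by -0.20 for FIT3, -0.05 for FET5, 0.01 for FTH1, 0.11 for AFT1 and 0.45 for FIT2, against a median of 0.09 over all genes. Among 13 other measured targets of Aft1 and its paralogue Aft2, 2 were at least 1 lower and 1 at least 1 higher, where 3.46% of all genes were at least 1 higher, and the median was -0.16. The members of that list named next were picked after their values were seen. FRE1, a surface metalloreductase gene, differed from 0 min by -1.65 in its first-hour median, SIT1, a siderophore transporter gene, differed by -1.11, and SMF3, a vacuolar metal transporter gene, by -0.82. ISU1, a scaffold gene of iron-sulfur cluster assembly, was higher, with a difference of 1.17. At 15 min alone FRE1 differed by -0.29, from 22 reads (95% counting interval -1.06 to 0.44), and at 30 min by -1.88, from 20 reads. GCACCC stood in 15 of 21 promoters of that list, including those of SIT1 and ISU1 (1 match each) and SMF3 (2 matches) but not that of FRE1.

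**Figure D2:**
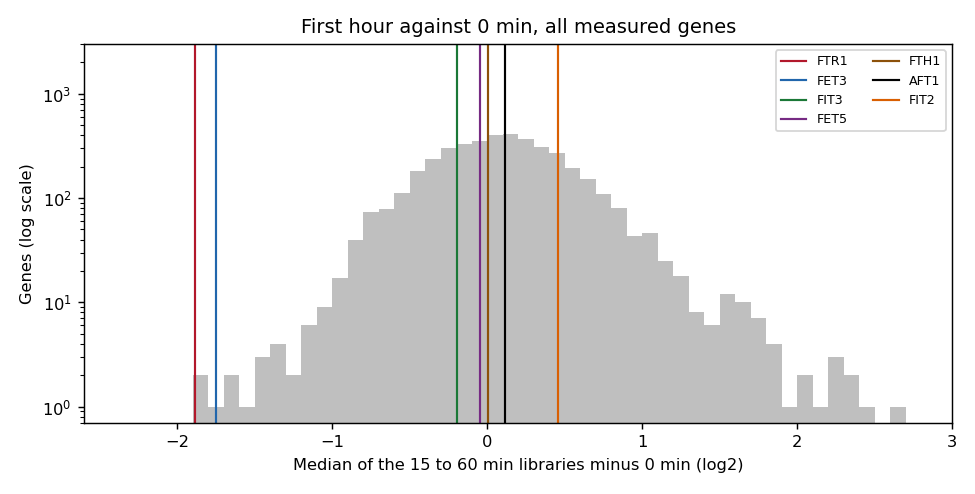
Histogram of the log2 difference between the median of the 4 first-hour libraries (15 to 60 min without phosphate) and the single 0 min library over 4245 genes, with the measured iron uptake genes marked. FTR1 at -1.89 and FET3 at -1.75 lie at the low end, and the other 5 marked members lie between -0.20 and 0.45.

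FTR1 and FET3 were both higher in the second hour than in the first, still below their 0 min level. From 15 to 60 min, FTR1 stood at 6.76, 6.98, 7.18 and 7.31 log2 RPM. From 75 to 120 min it stood at 7.94, 8.04, 8.10 and 7.83. FET3 stood at 6.67, 6.97, 7.23 and 7.73 from 15 to 60 min and at 8.21, 8.42, 8.43 and 7.95 from 75 to 120 min. In both genes every library of the second hour lay above every library of the first, and the highest value of the first 4 hours fell at 105 min.

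In limma, with Benjamini-Hochberg adjustment over 4340 genes, FET3 rose by 1.10 in the second hour relative to the first (SE 0.17, adjusted p = 0.000415, 2.14-fold). FTR1 differed by 0.92 (SE 0.12, adjusted p = 6.88e-05, 1.89-fold), which passed the p threshold but not the required difference of 1. By both criteria 0.276% of the tested genes were called in this comparison, and 0.161% were called higher. The median gene differed by -0.04. The other 5 tested members differed by -0.13 to 0.18 and none was called. The size criterion decided these calls: without the 15 min library FET3 differed by 0.94 (adjusted p = 0.00234) and was not called, and without the 60 min library FTR1 differed by 1.01 (adjusted p = 6.36e-06) and was called. Centred on each library's median gene, FTR1 differed by 1.07 (adjusted p = 0.000124) and was called too.

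Between 135 and 240 min both genes lay lower again. FTR1 stood at 7.70, 7.61, 7.52 and 7.61 in the third hour and at 7.39, 7.51, 7.40 and 7.71 in the fourth. FET3 stood at 8.02, 7.85, 7.66 and 7.65 in the third hour and at 7.43, 7.64, 7.28 and 7.46 in the fourth. The third hour differed from the second by -0.37 in FTR1 (limma, adjusted p = 0.0228) and by -0.46 in FET3 (adjusted p = 0.0465), neither reaching the required size. Of all tested genes 2.56% were called in this comparison, and without the trend and robust options FET3 had an adjusted p of 0.0655.

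The highest FTR1 value without phosphate was 8.17 at 360 min, close to 8.10 at 105 min. Their 95% counting intervals overlapped (247.8 to 334.6 and 248.8 to 301.8 RPM). FTR1 stood at 7.86, 7.76, 7.62 and 7.69 in the fifth hour and at 7.80, 7.98, 8.11 and 8.17 in the sixth. FET3 stood at 7.39, 7.73, 7.72 and 7.49 in the fifth hour and at 7.75, 7.36, 7.88 and 8.07 in the sixth. Each hour from the fourth on, set against the hour before it, gave 0 members called in limma, beside 3.46% of tested genes called in the fourth hour, 0% in the fifth and 0% in the sixth. At an unadjusted p under 0.05, 2 of 7 members were higher in the fourth hour, 0 in the fifth and 2 in the sixth, beside 23.0%, 5.67% and 6.82% of all tested genes, and 0 members were lower. At 360 min FTR1 was still 1.73-fold lower than at 0 min (1.45 to 2.07) and FET3 1.71-fold lower (1.43 to 2.06). Neither was at least 1 lower (log2), as 3.83% of 4175 genes were. Counting the gene itself, 185 of the 4175 had a difference as low as FTR1 or lower, and 187 as low as FET3 or lower. Both lay below their 0 min level in 24 of 24 no-phosphate libraries, as did SIT1 and SMF3 and 5.56% of the 3255 genes with a value in every library.

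**Figure D3:**
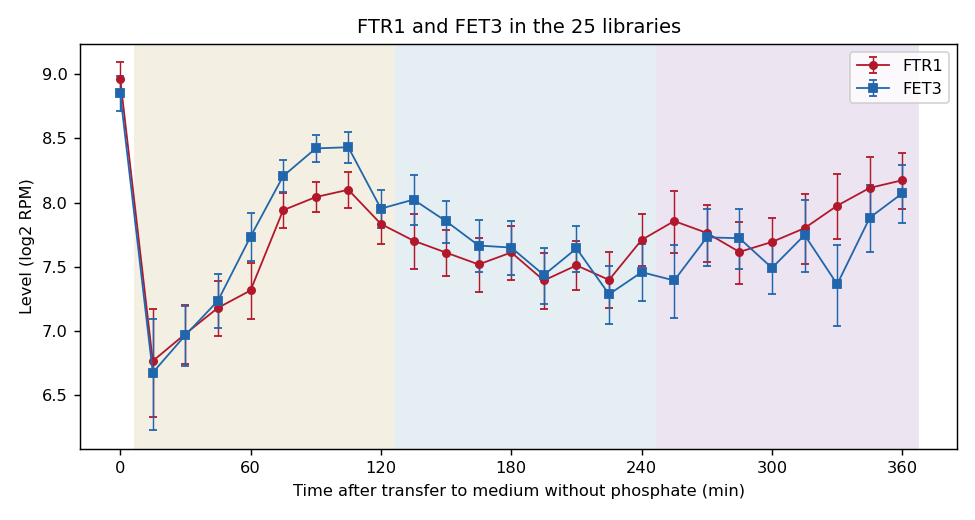
FTR1 and FET3 in log2 RPM by time after transfer (min), 1 library per point, with exact 95% Poisson intervals for counting error as bars and the early, middle and late windows shaded. Both are highest at 0 min (8.96 and 8.85), lowest at 15 min (6.76 and 6.67) and peak again near 105 min (8.10 and 8.43).

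FTR1 and FET3 had the most similar profiles among the members. Over the 25 libraries the Pearson r between them was 0.849, the highest of 3254 genes for each of the pair, and it was 0.793 and again the highest without the 0 min library. All points share the depth and composition of their library, so r is given as a description. Over the 25 libraries the next genes were KAP123, TPA1, FYV7 and PUF6 for FTR1, with r of 0.729 or less. For FET3 they were SIT1, RPA43, AUR1 and KAP122, with r of 0.707 or less. Without the 0 min library HPT1 came close behind FET3 for FTR1, with r of 0.79. For FET3 the next gene was then RPA43, with r of 0.605. The remaining 14 pairs among the 6 members valued in every library had r between -0.37 and 0.33. For AFT1 the 5 highest genes were TYS1, PBP1, GCD7, SEN1 and NMD5, with r from 0.576 to 0.513. For the mean profile of the members the 10 highest were YIL047C-A, SYG1, DGK1, CDC16, REX2, IZH1, FYV7, UTH1, SCW4 and SRM1, with r from 0.716 to 0.683.

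Although similar, the 2 profiles had a different mean ratio in the late and the early window. The difference FTR1 minus FET3 averaged 0.20 ± 0.24 in the late window and -0.18 ± 0.19 in the early window (SD, n = 8 each). These differed by 0.38 in a two-sided exact permutation test (p = 0.00326, Benjamini-Hochberg p = 0.0196 over 6 comparisons of both pairs). The windows overlapped, with late values from -0.11 to 0.61 and early values from -0.42 to 0.09. Some neighbouring differences ran together, such as -0.42, -0.27, -0.38 and -0.33 from 60 to 105 min. The test takes time points as exchangeable, so its p may be too small. In the middle window the difference averaged -0.07 ± 0.19 (SD, n = 8), which did not pass adjustment against the late (adjusted p = 0.0699) or the early window (exact permutation, adjusted p = 0.303). A common scaling of a library leaves this difference as it is. Per kilobase of gene, FTR1 was 1.18 to 2.41 times FET3, with a median of 1.53. The vacuolar pair, FTH1 minus FET5, averaged 0.18 ± 0.42 late and -0.11 ± 0.39 early (SD, n = 8 each), a difference of 0.29 within the spread of libraries (exact permutation p = 0.169, adjusted p = 0.303).

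**Figure D4:**
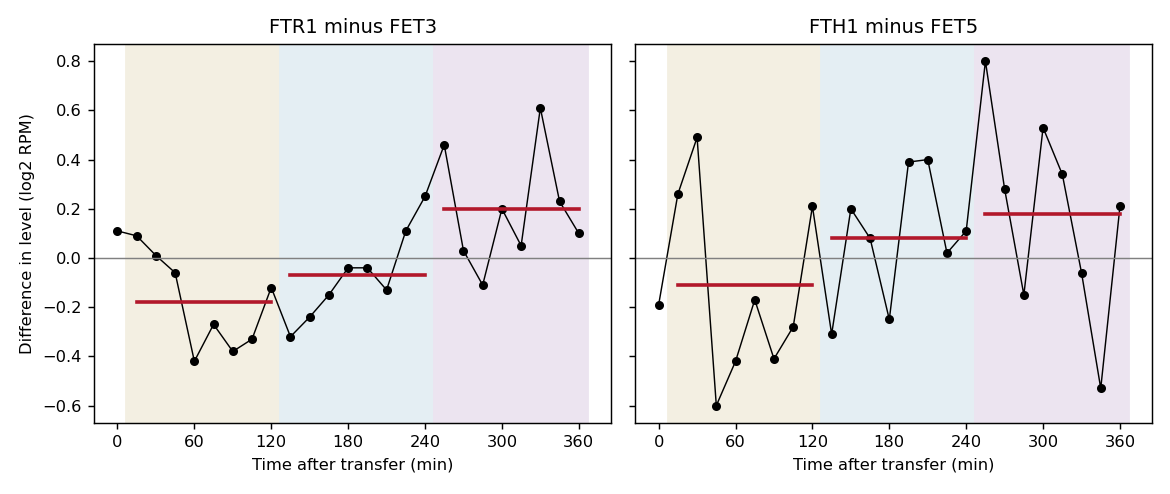
Difference in log2 RPM of FTR1 minus FET3 and of FTH1 minus FET5 by time after transfer (min), 1 library per point, with red bars at the window means. FTR1 minus FET3 averages 0.20 in the late and -0.18 in the early window.

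Among the cell wall genes, FIT2 varied less over the no-phosphate libraries (SD 0.26, n = 24) than FIT3 (SD 0.50, n = 22), while FIT1 had no value in any library, the deepest of which listed genes down to 6.60 RPM. FIT2 had 5.04, 5.44 and 5.83 as lowest, median and highest log2 RPM in the late window, 4.52, 5.40 and 5.48 in the middle and 5.02, 5.36 and 5.57 in the early window. All 3 windows overlapped. FIT3 had 4.46, 5.23 and 5.41 in 7 late libraries, 3.98, 4.75 and 5.16 in 8 middle libraries and 3.89, 4.25 and 4.69 in 7 early libraries, and 4.79 at 0 min. Over the 6 hour windows FIT3 had a range of 1.11 between hour means (limma F, adjusted p = 0.00114) and was called. So were FET3 (range 1.10, adjusted p = 7.02e-05) and 29.7% of all tested genes. FTR1 had a range of 0.96 (limma F, adjusted p = 3.87e-07), which passed the p threshold but missed the required range of 1. The FIT3 call was lost when libraries were centred on their median gene (range 0.62, adjusted p = 0.232) or scaled to the reads left without ribosomal protein genes (0.75, adjusted p = 0.107). It was also lost, on size alone, with missing values set to the read floor (0.99, adjusted p = 0.00676) or a pseudocount of 10 RPM (0.81, adjusted p = 0.000861). That floor had a median of 24.5 RPM in the late and 10.97 RPM in the early window.

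The siderophore transporter genes ARN1 and ARN2 were near the limit of detection. ARN1, whose product imports ferrichrome, had values in 6 of 25 libraries, between 45 and 150 min, of 3.49 to 4.07 log2 RPM from 15 to 34 reads. ARN2, which encodes a transporter of the same family, had values in 9 libraries between 75 and 300 min, of 3.57 to 4.71. The libraries without a value include shallow ones whose floor lay above these levels, so neither gene was tested.

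The vacuolar genes FTH1 and FET5 and the regulator AFT1 each had overlapping values in the late and early windows. FTH1 had 5.66, 6.23 and 6.41 as lowest, median and highest in the late window and 5.27, 5.66 and 6.06 in the early window. FET5 had 5.46, 5.90 and 6.48 late and 5.45, 5.79 and 6.08 early. AFT1 had 5.21, 5.59 and 6.17 late and 5.28, 5.53 and 5.82 early, with its highest value at 360 min. Over the hour windows the range of means was 0.53 for FTH1 (limma F, adjusted p = 0.00727), 0.47 for FET5 (adjusted p = 0.15), 0.40 for FIT2 (adjusted p = 0.489) and 0.25 for AFT1 (adjusted p = 0.534), and none reached 1.

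**Figure D5:**
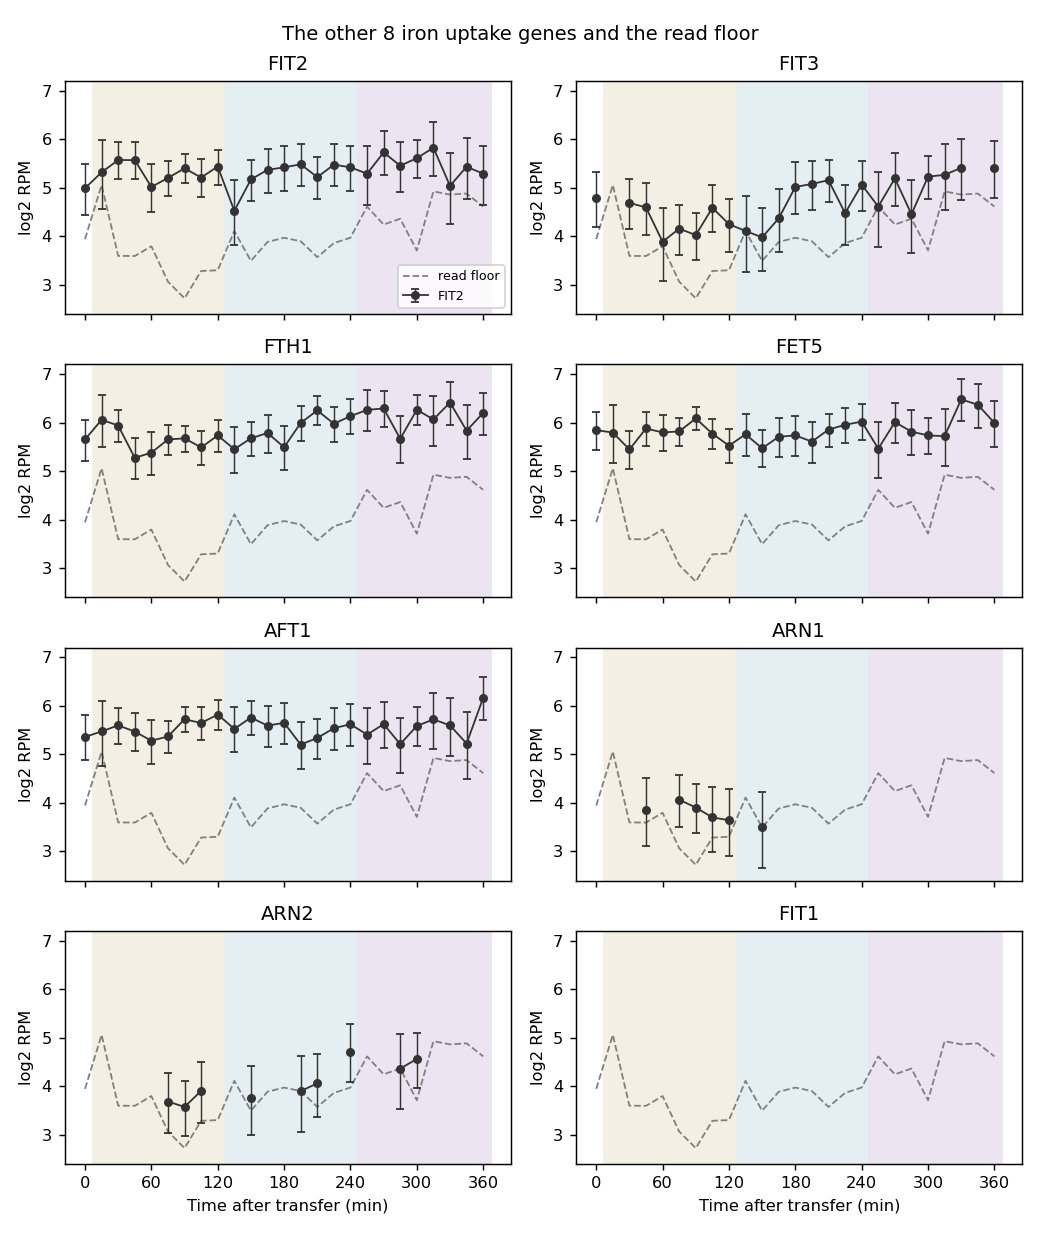
The other 8 iron uptake genes in log2 RPM by time after transfer (min), with exact 95% Poisson intervals for counting error as bars and the read floor of each library as a dashed line. ARN1 and ARN2 appear only in some libraries, FIT1 in none, and FTH1, FET5, FIT2 and AFT1 stay between 4.52 and 6.48.

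Ordered by median RPM per kilobase over the no-phosphate libraries, FTR1 was highest at 170.9, followed by FET3 at 108.3, FIT2 at 92.1, FTH1 at 42.3, FIT3 at 39.5, FET5 at 29.7 and AFT1 at 23.2. FET3 and FIT2 were 0.23 apart on the log2 scale and FTH1 and FIT3 0.10 apart, less than the spread of any of these genes over libraries (SD 0.26 to 0.50). ARN2 at 8.03 and ARN1 at 7.30 rest on 9 and 6 libraries. The order takes reads to cover whole genes, which the sources used here do not state, and how reads shared by related genes were assigned is not given either.

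No member passed both criteria between the late and the early window. In limma 0 of 7 tested members were called in the late against the early window, beside 17.2% of 4343 genes called. Before adjustment (p under 0.05) 3 of the 7 were higher and 0 lower, beside 65.7% and 7.78% of all tested genes. The members had a median difference of 0.18 against 0.45 over all tested genes. FIT3 differed by 0.77 (SE 0.20, adjusted p = 0.00145), FTH1 by 0.47 (adjusted p = 0.00279) and FTR1 by 0.36 (adjusted p = 0.0389). FET5 differed by 0.18 (adjusted p = 0.2), FIT2 by 0.12 (adjusted p = 0.442), AFT1 by 0.02 (adjusted p = 0.896) and FET3 by -0.03 (adjusted p = 0.908). Centred on each library's median gene, every member but FIT3 had a negative difference, from -0.51 for FET3 to -0.013 for FTH1, and FIT3 had 0.24. The middle against the early window also gave 0 members called (0 at an unadjusted p under 0.05, beside 52.8% higher and 9.21% lower over all genes) with 7.32% of genes called, and the late against the middle window 0 (3 higher, 0 lower unadjusted, beside 32.9% and 6.33%) with 0.806% called.

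Other genes of iron handling were compared between the late and the early window as lists, whose unadjusted counts stand against 65.7% of all tested genes higher and 7.78% lower at the same unadjusted p. Of 11 other tested Aft1 and Aft2 targets 0 were called (limma, with 7 higher and 0 lower before adjustment at p under 0.05), with a median difference of 0.34. The furthest were PCL5, a cyclin gene, at 0.98, ATX1, a copper chaperone gene, at 0.79 and AKR1, a palmitoyltransferase gene, at 0.54, and PCL5 passed the size criterion without the 15, 30, 270 or 285 min library. Of 7 iron regulators 0 were called (2 higher and 0 lower unadjusted), with MSN5, the nuclear exporter of Aft1, at 0.50, CTH1, an mRNA-binding protein gene, at 0.40 and FRA1, a negative regulator of Aft1, at 0.38. Of 22 iron-sulfur cluster assembly genes 0 were called (9 higher and 2 lower unadjusted), with JAC1, a co-chaperone gene, at 0.90, ISA1, an assembly factor gene, at 0.73 and ARH1, a mitochondrial reductase gene, at 0.66. CTH1 and FRA1 were below 0 when libraries were centred on their median gene or scaled without ribosomal protein genes.

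Of 24 genes that encode iron-containing enzymes or their subunits 8 were called higher and 0 lower in the late relative to the early window. Their median difference was 0.61. Over all tested genes 13.8% were called higher and 3.41% lower. Before adjustment (p under 0.05) 15 of the 24 were higher and 3 lower, beside 65.7% and 7.78% of all tested genes. CTT1, the cytosolic catalase, rose 12.1-fold (limma, adjusted p = 1.03e-08), and RNR4 and RNR2, small subunits of ribonucleotide reductase, rose 3.2-fold and 3.12-fold (adjusted p = 1.82e-10 and 1.58e-10). With either scaling 6 of these genes rose and 1, BIO2, the biotin synthase gene, fell. Over all 4343 tested genes 181 rose and 199 fell after centring, and 201 rose and 191 fell with ribosomal protein scaling. Unscaled values gave BIO2 a difference of -0.75 that did not reach the size limit. Of 6 genes of low-affinity and vacuolar metal transport 1 was called (2 higher and 1 lower unadjusted). It was PHO84, the high-affinity phosphate transporter, which rose by 3.47-fold (limma, adjusted p = 2.15e-09). CCC1, the vacuolar iron importer, differed by 0.79 and ZRC1, a vacuolar zinc transporter, by -0.30, neither reaching the size limit. Of 9 copper genes 2 were called, both higher (4 higher and 1 lower unadjusted). CRS5, a metallothionein, rose by 3.91-fold (limma, adjusted p = 5.03e-11). CUP2, the copper-responsive activator of metallothioneins, rose by 2.03-fold (adjusted p = 1.59e-05), while MAC1, the copper uptake regulator, differed by 0.77. CUP1-1 and CUP1-2 held identical values in every library. The CUP2 call was lost with either scaling, with the read floor for missing values, with a pseudocount of 10 RPM and without the 45, 75, 315, 330 or 345 min library.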

How the data were processed

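Total RNA was sequenced from 25 libraries, and reads were aligned with Bowtie to the R64 build, per the submitters' processing notes. The deposited values are log2 RPM: back-transformed, they have the same sum in each library, although the submitters' design text speaks of normalization to the first time point. Genes under 15 reads have no value, and between 93.6% and 94.4% of values per library came out as whole reads within 0.02, too few for a count model. A further 51 entries had neither name nor value.

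Differences between windows were fitted by limma 3.58.1 under R 4.3.3 (trend and robust options) over genes listed in 20 or more of the 24 libraries without phosphate. A call needed a Benjamini-Hochberg adjusted p under 0.05 and a log2 difference, or range, of at least 1. The fit was run on simulated counts drawn independently for each library. That run does not cover dependence between neighbouring time points. Pair differences used exact permutation in scipy 1.17.1, and Poisson and ratio intervals are exact at 95%. Alternatives covered scaling, filters, missing values, pseudocount, limma options, a spline of time and left-out libraries. The genes and lists were chosen with earlier results of these data known. Genes named were the 10 members, up to 3 per list by late against early difference, and those with the highest r. BRN1, DBP2, FRE1, SIT1, SMF3, ISU1 and BIO2 were named after their values were seen.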

Additional observations from a re-analysis of the deposited data

Results flagged for a closer look

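FIT2 at 135 min, at 4.52 log2 RPM from 20 reads, lay apart from the other 7 middle-window libraries by more than Dixon's criterion allows. It was the only such value among 23 groups of members and windows screened, where chance gives about 1 in 20.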

How the results depend on the processing

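Late, middle and early windows gave 0 members called under every alternative run. Members called across hour windows (2 as reported: FET3 and FIT3) numbered 1 when libraries were scaled to reads outside ribosomal protein genes, restricted to genes valued in all 24 libraries, given the read floor for missing values or a pseudocount of 10 RPM, or fitted without the 15, 345 and 360 min libraries, and 1 to 3 with single libraries left out. They numbered 2 after median centring, FTR1 and FET3. Members called between successive hours (1 as reported) numbered 2 after median centring, 0 without those 3 libraries, and 0 to 2 with single libraries left out. The cause was not tested.

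Some small differences changed sign. After median centring, late against early differences were -0.13 for FTR1, -0.37 for FIT2, -0.013 for FTH1, -0.30 for FET5, -0.47 for AFT1, -0.043 for CTH1 and -0.11 for FRA1, and second against first hour differences were 0.097 for FIT2 and 0.13 for FTH1. Scaled to reads outside ribosomal protein genes, late against early differences were -0.11 for FTR1, -0.35 for FIT2, -0.28 for FET5, -0.44 for AFT1, -0.056 for CTH1 and -0.0851 for FRA1. Without the 15, 345 and 360 min libraries AFT1 was -0.034 late against early and FTH1 0.11 in the second against the first hour. With single libraries left out, late against early differences ran from -0.067 to 0.070 for AFT1 and from -0.17 to 0.076 for FET3. Second against first hour differences then ran from -0.024 to 0.16 for FET5, -0.17 to 0.011 for FIT2, -0.39 to 0.015 for FIT3 and -0.16 to 0.11 for FTH1. None of these was called under either setting.

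Over all genes, late against early calls numbered 747 (599 higher, 148 lower), but 380 (181 higher, 199 lower) after centring and 392 (201 higher, 191 lower) with ribosomal protein scaling, and hour-window calls 1291, 688 and 733. A spline of time with 5 degrees of freedom, fitted to genes valued in all 24 libraries, called FTR1 and FET3, and 36% of the 3275 genes fitted. The FTR1 minus FET3 difference ran from 0.32 to 0.43 with single libraries left out. The early median against 0 min was recomputed with centring, ribosomal protein scaling, a pseudocount of 10 RPM and without the 15 min library. It ran from -1.13 to -1.52 for FTR1 and from -0.90 to -1.14 for FET3. The pair comparisons themselves were not planned in advance. The pair and 0 min alternatives, and those for the other lists, were chosen after seeing the data. No paired analysis was possible because the libraries are time points of a single course and share no replicate numbers in the labels. Depth limits ARN1, ARN2, FIT1 and FIT3, which lay near or under the read floor.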
